A study of Mus musculus with 9 samples.

Results

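The livers of mice given an adeno-associated virus that encodes mouse GP73 (AAV-GP73) were compared with the livers of mice given the same kind of virus with an empty vector (AAV-V), both on a regular diet. These are 6 of the 9 arrays of the series, 3 in each group, and they were chosen by their labels alone. The other 3 arrays, from AAV-V mice on a high-fat diet, entered only 1 alternative fit. All mice were male C57BL/6N mice that received virus directed to hepatocytes by repeated injection into the tail vein. The samples carry an age label of 12 months, which in the study's account is the time since injection. It is not stated whether each array holds the RNA of a single animal or of several, so the p-values measure only the spread between these samples, which may be technical. The promoter in the virus is not given in the sources used here. The question was which liver genes differed after long overexpression of GP73.

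GP73 is a membrane protein of the Golgi apparatus, encoded by Golm1. The liver burns fatty acids in mitochondria and, for very long or branched chains, in peroxisomes, and it turns the product into ketone bodies. It also builds fatty acids from citrate in the cytosol, a route that is active after feeding, and exports fat with apolipoproteins through the endoplasmic reticulum and the Golgi apparatus. The transcription factor PPAR-alpha is known to turn on many of the oxidation genes, and SREBP-1 and ChREBP many of those for synthesis.

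The AAV-V arrays carried less signal than the AAV-GP73 arrays. Between 10.2% and 10.8% of the non-control spots of the AAV-V arrays passed the scanner software's test for signal well above background, and between 16.0% and 18.4% of those of the AAV-GP73 arrays. The 2724 probes that passed it on every array had median signals averaging 34.8 ± 2.896 (SD, n = 3) over the AAV-V arrays and 109 ± 13.4 (SD, n = 3) over the AAV-GP73 arrays, whereas the spike-in controls had a mean log2 signal of 9.77 ± 0.28 (SD, n = 3) and 9.63 ± 0.04 (SD, n = 3). All 3 AAV-V arrays lay in 1 column of the slide and all 3 AAV-GP73 arrays in the other, so that group and slide column cannot be told apart. The single probe for Golm1, on chromosome 13, read between 1.51 and 2.06 on all 6 arrays and was not well above background on any, so the overexpression could not be checked with it. Of the hepatocyte markers, 8 of 8 were above background on every array, and the sum of their scaled signals overlapped between the groups, at 12760 to 20950 for AAV-V and 12710 to 16160 for AAV-GP73.

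**Figure D1:**
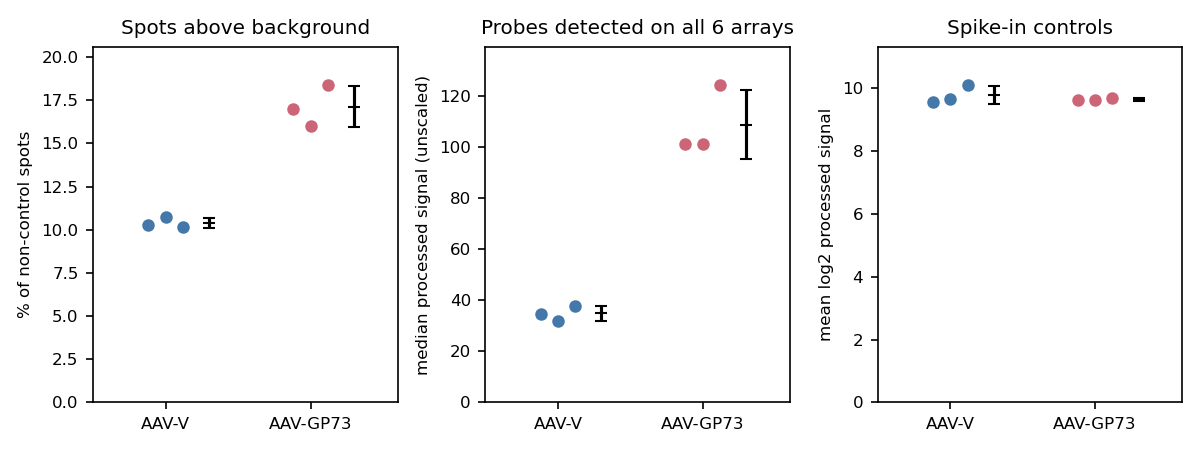
Share of spots above background, median processed signal before scaling, and mean log2 signal of the spike-in controls for each array, with the mean and SD of 3 arrays as bars. The AAV-GP73 arrays lie above the AAV-V arrays in the first 2 panels, and the groups overlap in the third.

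Each array was scaled to the same 75th percentile of the probes above background on all 6 arrays, and 5584 genes whose brightest probe was above background on all 3 arrays of a group were tested. Of these, 2483 were above background on all 6 arrays and are called measured below. Another 2061 were above background on no AAV-V array, 23 on no AAV-GP73 array and 1017 on some arrays of 1 group. After scaling, the median log2 change of all 5584 genes was 0.62, and over the 9 single pairs of an AAV-GP73 and an AAV-V array it lay between 0.44 and 0.74. Changes are therefore given relative to this median, as AAV-GP73 minus AAV-V on the log2 scale, with the standard error, and a gene was called at a relative fold of 2 or more and an adjusted p under 0.05 in limma. A relative change of 0 stands for a processed signal that was 2.15 higher on the log2 scale on the AAV-GP73 arrays before scaling.

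In all, 789 genes (14.1% of those tested) were called higher and 1481 (26.5%) lower. Among the measured genes 131 (5.28%) were called higher and 1135 (45.7%) lower. The split rests on the reference. The median of the measured genes was -0.22, and relative to it 2404 genes (43.1%) were called higher and 955 (17.1%) lower, which turns the share of rises among calls from 34.8% to 71.6%. With no reference it was 64.7%. Genes that rose or fell relative to the median are therefore described below from those that held under both references where possible: 131 measured genes rose and 745 fell under both, with no overlap of the groups. A gene tested only because it was above background on the AAV-GP73 arrays was chosen by its level there. For several gene lists the members measured on all 6 arrays are therefore counted apart. For the other lists the counts are of all genes tested and may include genes chosen in this way. Of all 2061 genes above background on no AAV-V array 569 were called higher, and of all 1017 seen on some arrays of a group 89. With another background correction, normexp on the mean signals with an offset of 50, 406 genes were called higher and 83 lower. The number of falls therefore rests on that choice too. The offset is added to every signal and shrinks the log2 differences of dim probes. How many calls were lost for that reason was not tested.

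**Figure D2:**
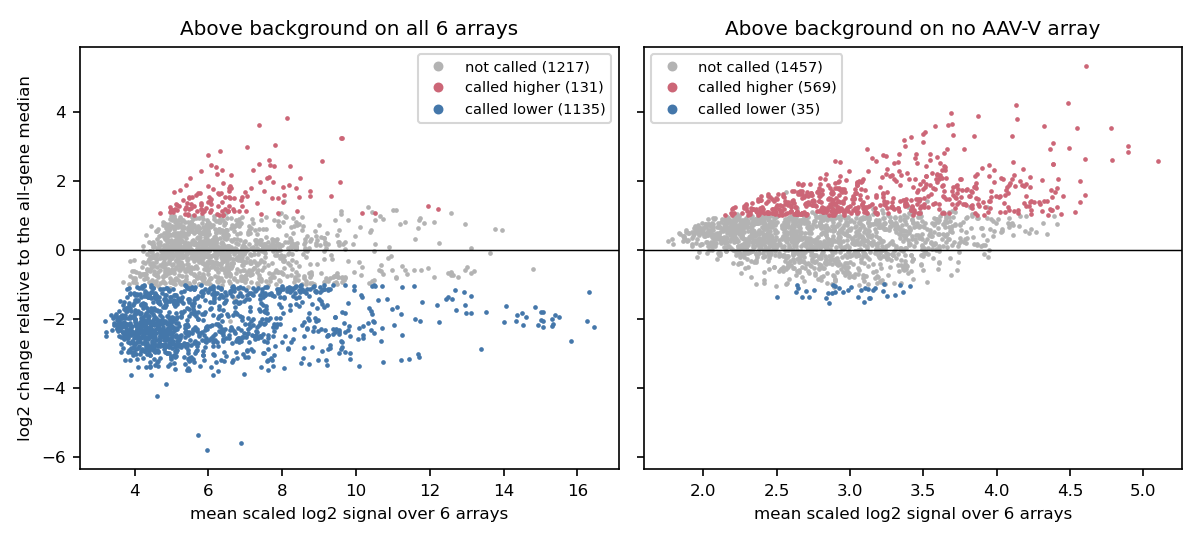
Log2 change relative to the all-gene median against the mean scaled log2 signal, for 2483 genes above background on all 6 arrays and for 2061 genes above background on no AAV-V array. Called genes are coloured, and in the first panel 131 lie above and 1135 below the line at 0.

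The measured genes with the largest rises were mostly enzymes of fat, sugar and amino acid metabolism. Ephx2, a soluble epoxide hydrolase that acts on fatty acid epoxides (chr14:66703319-66703378 of mm9), had scaled log2 signals of 5.26, 5.00 and 5.47 on the AAV-V arrays and 9.02, 9.63 and 9.82 on the AAV-GP73 arrays. All AAV-GP73 values lay above all AAV-V values, and the relative change was 3.62 ± 0.31 (SE), a relative fold of 12.3 (adjusted p = 7.3e-05). Pck1, the enzyme that commits carbon to glucose synthesis, gave 4.85, 5.19 and 5.72 against 8.69, 9.22 and 8.64, a relative fold of 7.85 (adjusted p = 9.7e-05). Acaa1b, a peroxisomal thiolase, gave 4.39, 4.92 and 4.37 against 7.41, 8.20 and 8.56. Its relative change was 2.87 ± 0.35 (SE), above those of Decr1, a mitochondrial reductase of unsaturated fatty acids, at 2.75 ± 0.33 (SE), by less than these errors. Scp2, a peroxisomal sterol and lipid carrier and thiolase, was at 2.49 ± 0.28 (SE).

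Decr1 read 4.47, 4.03 and 4.41 in AAV-V and 7.06, 7.87 and 8.09 in AAV-GP73. Ldha, which converts pyruvate to lactate, read 6.05, 6.53 and 5.51 against 9.36, 9.02 and 9.39, a relative fold of 6.08. Bhmt, which remakes methionine from homocysteine, read 7.48, 7.34 and 7.59 against 9.78, 10.84 and 11.37, a relative fold of 5.94. Aldh1a1, a retinaldehyde dehydrogenase, rose 5.55-fold and Scp2 5.63-fold relative to the median. No group overlapped in any of these genes. A second probe of Ldha read 2.81 to 5.53 in AAV-V, below background, and 11.7 to 20.5 in AAV-GP73 in processed signal before scaling. A second probe of Bhmt read 315, 198 and 418 against 557, 846 and 1700, a smaller difference than that of the median gene.

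Both alpha-globin genes, Hba-a1 and Hba-a2, were among the 12 largest rises. Hba-a1 read 7.31, 7.14 and 8.61 on the AAV-V arrays and 12.81, 10.44 and 11.39 on the AAV-GP73 arrays, a relative change of 3.23 ± 0.58 (SE), and the first AAV-GP73 array was the highest. The sequences of Hba-a1 and Hba-a2 are near-identical and their values cannot be taken as separate. Of the 9 erythroid markers, 8 were on the array, 3 were above background throughout the AAV-V group and 5 throughout the AAV-GP73 group. Their summed scaled signal was 343 to 852 in AAV-V and 2912 to 15000 in AAV-GP73. Alas2, the erythroid enzyme that starts heme synthesis, was at 0.14 ± 0.57 (SE) and was not called. The part of blood in the other rises was not tested, and in whole tissue more cells of a type and more RNA per cell cannot be told apart.

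For the genes above background on no AAV-V array, the data give only a least fold, the mean on the AAV-GP73 arrays over the lowest signal that counts as well above background on each AAV-V array, or the probe's own value where that was higher, without the all-gene median taken off. Of the 2061 genes, 240 reached a least fold of 2 and 75 exceeded the all-gene median by that much. Hacl1, which shortens branched and 2-hydroxy fatty acids in peroxisomes, read 1.58, 1.60 and 1.73 on the AAV-V arrays and 7.23, 7.69 and 7.82 on the AAV-GP73 arrays, at least 15.5-fold higher. Plin2, which coats lipid droplets, read 2.86, 1.55 and 1.75 against 7.01, 6.47 and 7.30, at least 9.84-fold higher. Mat1a, the liver enzyme that makes S-adenosylmethionine, read 3.09, 2.66 and 2.37 against 6.42, 6.95 and 7.19, at least 9.37-fold higher.

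The next were Slc25a47, a mitochondrial carrier made in hepatocytes, at least 8.39-fold higher, and Cpt2, which reforms acyl-CoA inside mitochondria, at least 8.22-fold higher. Hsd17b4, the peroxisomal multifunctional protein, was at least 7.64-fold higher, Etfdh, which passes electrons of fat oxidation to ubiquinone, at least 7.53-fold, and Pex11a, which divides peroxisomes, at least 7.43-fold. Cpt2 read 2.83, 3.79 and 2.61 in AAV-V and 6.17, 6.93 and 7.06 in AAV-GP73. In each of these 8 genes the groups lay apart, and all 8 were called higher.

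**Figure D3:**
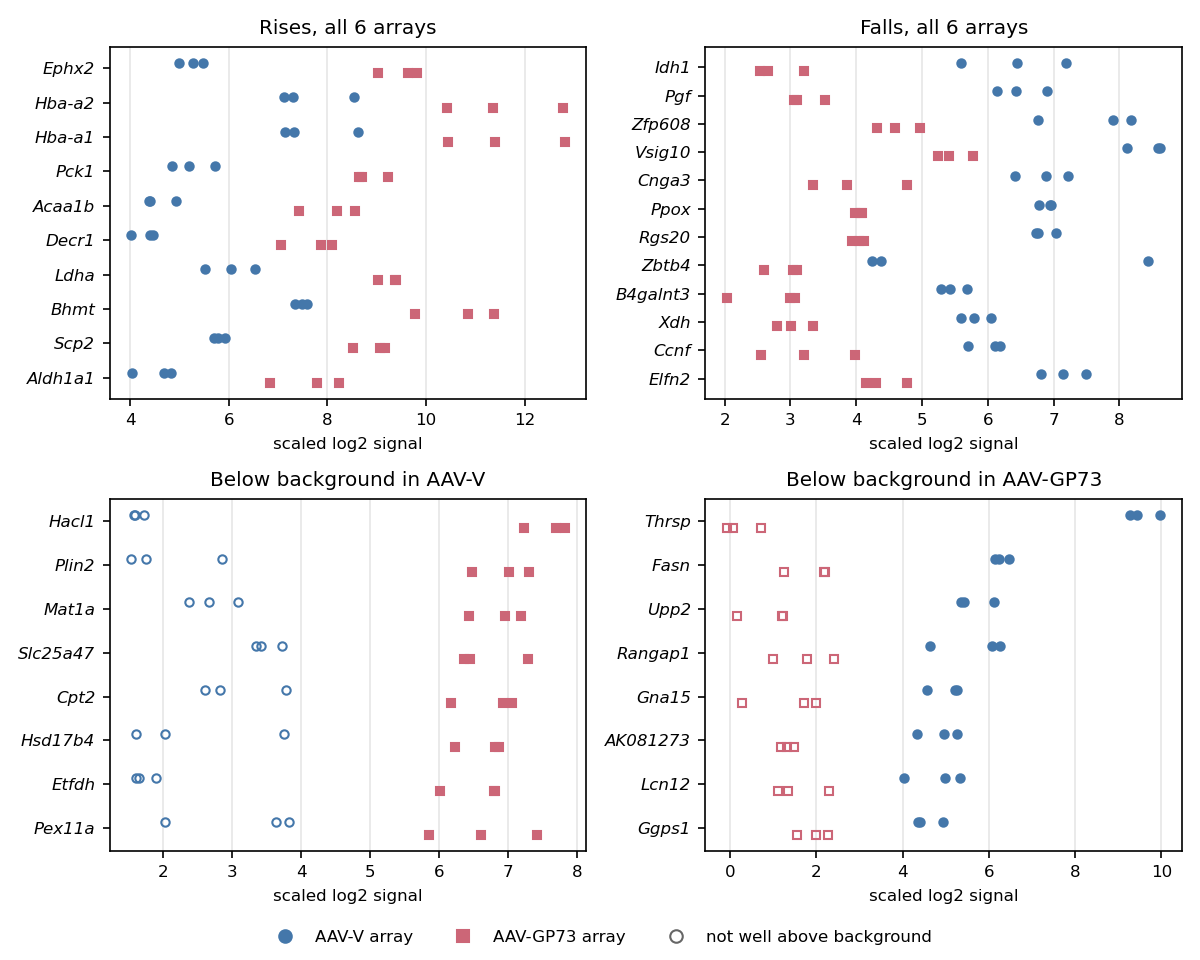
Scaled log2 signal on each array for the largest rises and falls among measured genes and for the largest least rises and least falls among genes below background in 1 group, 3 arrays per group. Open points were not well above background, and the groups lie apart in every row, with 1 AAV-V array of Zbtb4 far above the others.

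Of 21 genes for peroxisomal oxidation 18 were tested and 6 were measured on all 6 arrays. Of these 6, 5 were called higher and 1 lower, beside 5.28% and 45.7% of all measured genes. The other 12, chosen by their level in AAV-GP73, were all called higher, 8 of them above background on no AAV-V array. Besides those named above, Ehhadh, the bifunctional enzyme of the peroxisomal route, read 1.53, 1.60 and 1.73 in AAV-V and 6.03, 5.95 and 6.39 in AAV-GP73, at least 5.65-fold higher. Crot, which hands shortened acyl groups to carnitine, was at least 6.58-fold higher. The lowest called members were Acot8, a peroxisomal thioesterase, at 1.29 ± 0.33 (SE), and Decr2, the peroxisomal counterpart of Decr1, at 1.40 ± 0.30 (SE).

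Acaa1a, a thiolase and close relative of Acaa1b, was the member called lower, and its probes disagreed. The brightest probe read 7.38, 7.63 and 8.58 in AAV-V and 6.13, 6.38 and 6.51 in AAV-GP73, a relative change of -2.14 ± 0.35 (SE). Before scaling its processed signal was 97.2, 109 and 245 in AAV-V and 109, 134 and 180 in AAV-GP73. The second probe of Acaa1a read 7.81, 7.76 and 15.8 against 236, 383 and 605, and that probe was called higher.

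Of 18 genes for mitochondrial beta-oxidation 16 were tested and 4 were measured, and all 4 (Decr1, Acaa2, Etfb and Etfa) were called higher, beside 5.28% of all measured genes. Of the other 12, 10 were called higher and 0 lower, beside 14.1% and 26.5% of all genes tested. Etfdh was the highest, and Hadhb, the thiolase subunit of the trifunctional protein, read 1.82, 1.39 and 1.48 against 5.11, 6.18 and 6.22, at least 4.62-fold higher. Acadvl, the dehydrogenase for very long chains, read 3.13, 4.11 and 3.48 against 6.54, 7.27 and 7.49, a relative change of 2.90 ± 0.36 (SE). Cpt1a, which admits fatty acids to mitochondria, was called higher at 1.57 ± 0.29 (SE), with 1.20, 1.31 and 1.39 against 3.08, 3.62 and 3.77, but its mean in AAV-GP73 lay under the lowest signal that counts as above background in AAV-V, so that no least fold can be given. The 2 members not called were Acads, for short chains, at 1.31 ± 0.56 (SE) and Hadh at 1.22 ± 0.64 (SE). With normexp, 12 of the peroxisomal and 11 of the mitochondrial genes were called higher, and Cpt1a, Acat1 and Fabp2 were not called.

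All 4 genes for ketogenesis were called higher, 2 of them measured. Among them Bdh1, which reduces acetoacetate to 3-hydroxybutyrate, was at least 4.12-fold higher, and Acat1, which joins acetyl-CoA units, at least 2.05-fold. Of 19 genes for fatty acid uptake and activation 11 were tested, 5 called higher and 3 lower, beside 14.1% and 26.5% of all genes tested. Of the 6 measured, 2 were called higher and 3 lower, beside 5.28% and 45.7% of all measured genes. Fabp1, the main fatty acid binding protein of the liver, read 9.93, 9.34 and 9.77 against 10.98, 11.42 and 11.68, a relative change of 1.06 ± 0.30 (SE, adjusted p = 0.017). The call of Fabp1 was lost without AAV-V replicate 2, at 0.88, without AAV-GP73 replicate 2 or 3, at 1.03 and 0.89, and with the probe nearest the end of a RefSeq mRNA, at 0.70. Fabp2, its intestinal relative, was at least 3.52-fold higher, and Acsl1, the main acyl-CoA synthetase, read 4.06, 3.59 and 2.89 against 6.61, 7.25 and 7.50, a relative change of 2.98 ± 0.37 (SE). Those called lower were Acsl5, Slc27a1 and Dbi, which activate, import or bind acyl groups. Before scaling Acsl5 read 16.1, 16.4 and 29.6 in AAV-V and 14.5, 18 and 29.5 in AAV-GP73. The analysed probe of Dbi read 2030, 1570 and 2390 against 1470, 1180 and 1530 before scaling. Another probe of Dbi read 75, 35.7 and 62 against 312, 386 and 534. Relative to the all-gene median that other probe was at 0.72 ± 0.32 (SE) and was not called. Of 19 lipid droplet and lipolysis genes 7 were tested, all of them above background on no AAV-V array. Of these 7, 5 were called higher, beside 569 of all 2061 genes of that class. Plin5 was at least 4.16-fold and the monoglyceride lipase Mgll at least 3.32-fold higher. Hsd17b13, a droplet protein whose signal rose less than that of the median gene, was called lower at -1.09 ± 0.36 (SE).

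Some regulators of these genes were also called. Ppara, which encodes PPAR-alpha, read 2.32, 3.86 and 2.64 in AAV-V and 4.42, 4.84 and 5.21 in AAV-GP73, at least 2.17-fold higher (relative change 1.26 ± 0.42, SE; adjusted p = 0.031). Creb3l3, a liver transcription factor of the fasting response, was at least 3.78-fold higher, and Hnf4a, which maintains hepatocyte identity, rose by 1.84 ± 0.34 (SE), from 5.93, 5.01 and 5.12 to 7.56, 7.67 and 8.23. Among other known PPAR-alpha targets, Angptl4, an inhibitor of lipoprotein lipase, was called higher at 1.40 ± 0.40 (SE). The acyl-CoA thioesterase gene Acot1, above background on no AAV-V array, was called higher at 3.63. The omega-hydroxylases Cyp4a10 and Cyp4a14 were at 1.23 ± 0.50 (SE) and 0.78 ± 0.30 (SE) and were not called. Both were above background on no AAV-V array, so the size of their change was not measured. Before scaling Cyp4a10 read 1.62, 5.47 and 3.9 in AAV-V and 17.7, 40.5 and 54.4 in AAV-GP73. Cyp4a14 read 1.66, 1.94 and 2.02 against 9.42, 15.1 and 20.3. Of 5 Cyp4 omega-hydroxylases tested, 1 was called higher, Cyp4a31 at 1.37, and 1 lower, Cyp4a12b at -1.59. The shares of all genes tested were 14.1% and 26.5%. Cyp4a12b was the only measured member, and it was not called relative to the median of the measured genes. Before scaling Cyp4a12b read 11.8, 13.9 and 20.4 in AAV-V and 21, 20.2 and 25.1 in AAV-GP73.

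The 250 bases before the start of each gene are shown for 3 genes whose levels differed, 2 that were called higher and 1 lower, since they hold the half-site AGGTCA of nuclear receptors, searched on both strands and marked in capitals. The sequences are from RefSeq on GRCm38.p6, and each is written 5′ to 3′ on the strand of the gene.
Scp2, chr4:108118548-108118797, minus strand: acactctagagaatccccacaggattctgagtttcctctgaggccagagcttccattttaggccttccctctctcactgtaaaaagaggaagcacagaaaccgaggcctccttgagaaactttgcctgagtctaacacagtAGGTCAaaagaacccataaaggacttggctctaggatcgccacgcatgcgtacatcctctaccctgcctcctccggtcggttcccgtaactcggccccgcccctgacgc
Cpt1a, chr19:3323051-3323300, plus strand: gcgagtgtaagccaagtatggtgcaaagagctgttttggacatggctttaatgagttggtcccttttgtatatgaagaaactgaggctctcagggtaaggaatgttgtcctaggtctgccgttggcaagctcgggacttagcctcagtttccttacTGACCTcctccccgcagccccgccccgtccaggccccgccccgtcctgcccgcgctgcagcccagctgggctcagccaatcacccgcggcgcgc
Acly, chr11:100528001-100528250, minus strand: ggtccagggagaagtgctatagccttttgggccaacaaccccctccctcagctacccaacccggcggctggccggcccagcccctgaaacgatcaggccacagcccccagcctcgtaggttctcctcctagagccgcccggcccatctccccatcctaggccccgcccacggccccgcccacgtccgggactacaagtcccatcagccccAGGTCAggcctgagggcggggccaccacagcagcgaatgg
This half-site was in 14.0% of all 32851 promoter windows of the same length, which belong to 27025 genes. The counts for lists are of genes with the sequence in any of their windows. They are thus not in the same unit as the shares of all windows. The half-site was in 4 of 16 mitochondrial beta-oxidation genes (Cpt1a, Acadvl, Acadm and Echs1) and in 1 of 16 peroxisomal oxidation genes (Scp2). It was also in 2 of 14 lipogenesis genes (Acly and Elovl6). A direct repeat of this half-site with 1 base between the copies, and with the fourth base of each copy left variable, was in 0.338% of all windows and in none of those of the oxidation, ketogenesis, lipogenesis and cholesterol synthesis genes searched. Only 1 of the 4 ketogenesis genes had a window to search. The sterol regulatory sequence TCACNCCAC was in 1.05% of all windows and in those of Ehhadh, Mlxipl and Hmgcs1. The E-box CACGTG was in 6.02% of all windows, in 3 of 14 of lipogenesis genes (Elovl5, Mlxipl and Slc25a1), in 4 of 17 of cholesterol synthesis genes (Hsd17b7, Sc5d, Dhcr7 and Insig1) and in none of those of the oxidation genes. A match in letters is a description of the window and not a site of binding.

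Other catabolic and redox enzymes were called higher too, and the shares to set beside them are again 5.28% of measured genes and 14.1% of all genes tested. Of 50 genes for amino acid catabolism 44 were tested. Of the 11 measured 9 were called higher, of the 44 tested 28, and 0 were called lower. Oat, which converts ornithine, had the highest relative change at 3.68, and Ahcy the lowest at -0.39. Of 10 antioxidant enzymes measured 6 were called higher, of 18 tested (of 22) 11, and 0 were called lower. Catalase, encoded by Cat, which removes the peroxide made in peroxisomes, read 4.03, 4.19 and 4.84 against 6.91, 7.31 and 7.58, a relative change of 2.29 ± 0.32 (SE). Of 5 alcohol and aldehyde dehydrogenases measured 4 were called higher, and of 9 tested (of 14) 7. Adh1 was the lowest, at -0.83 ± 0.30 (SE), and was not called.

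In the TCA cycle both measured members were called higher, and of 15 genes tested (of 18) 10 were called higher and 0 lower, beside 14.1% and 26.5% of all genes. Sdha, a subunit of succinate dehydrogenase, had the highest relative change at 2.74 ± 0.29 (SE), and Idh3b the lowest at 0.42 ± 0.33 (SE). In the respiratory chain and ATP synthase 6 of the 34 measured genes were called higher, beside 5.28% of all measured, and 17 of 51 tested (of 52), beside 14.1%, with 0 lower. In the proteasome 8 of the 11 measured genes were called higher, and of 32 tested (of 37) 20 were called higher and 1 lower. The member called lower was Psmc4, an ATPase subunit, at -1.36, whose other probe was called higher.

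In gluconeogenesis 4 of 8 genes tested were called higher and 2 lower, beside 14.1% and 26.5% of all genes. Of its 4 measured members 3 were called higher and 1 lower, beside 5.28% and 45.7% of all measured genes. Fbp1, the fructose-bisphosphatase, read 6.26, 6.24 and 6.32 against 8.77, 9.12 and 9.12, a relative change of 2.11 ± 0.26 (SE), while G6pc, the last enzyme of glucose release, was at 0.76 ± 0.32 (SE) and was not called. Gpt2 and Slc37a4 were called lower. In glycolysis 3 of 10 genes tested were called higher (Ldha, Pgam1 and Pgk1) and 2 lower (Eno1 and Tpi1). Of its 9 measured members 2 were called higher and 2 lower. In the urea cycle 5 of 9 genes tested were called higher and 1, Cps1, lower, at -2.20 ± 0.37 (SE), while Arg1 was at 0.03 ± 0.29 (SE). Of the 5 measured members 1 was called higher and 1 lower. Cps1 has no other probe. Before scaling its dim probe read 9.17, 14.1 and 19.5 in AAV-V and 7.64, 16.8 and 17.6 in AAV-GP73, so the groups overlapped. The call of Cps1 is thus of a signal that stayed level while that of the median gene was brighter.

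**Figure D4:**
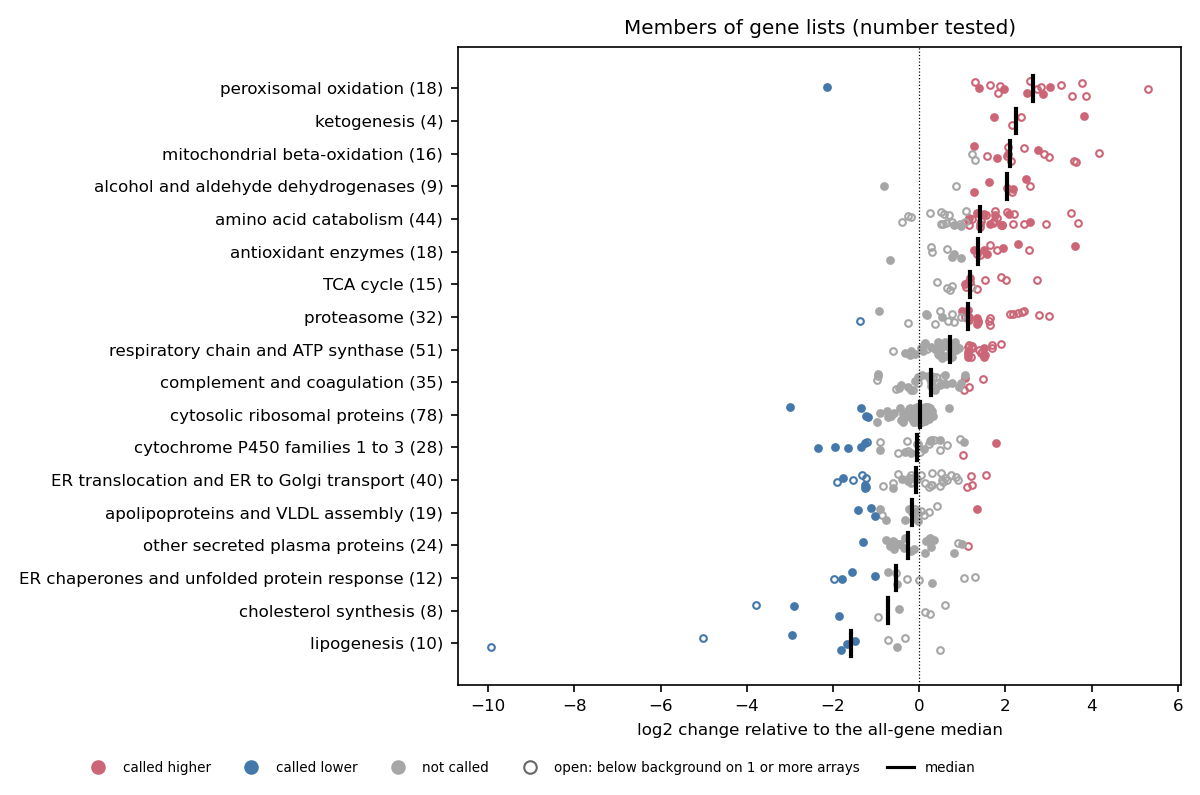
Log2 change relative to the all-gene median for the tested members of 18 gene lists, with the number tested in parentheses and the median as a bar. Filled points were above background on all 6 arrays, and the medians, which include genes tested only for their level in AAV-GP73, run from 2.65 for peroxisomal oxidation, all of whose members but Acaa1a lie to the right of 0, through 0.01 for the cytosolic ribosomal proteins to -1.58 for lipogenesis.

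Several genes for the synthesis of fat fell. Of the 23 genes above background on no AAV-GP73 array, all were at least 2-fold lower on the scaled values. They passed the filter only through their level in AAV-V, and the scaling lowered the AAV-GP73 signals relative to AAV-V. This count was thus largely set by the choice of genes and is not a result about them. Thrsp, a nuclear protein that goes with active lipogenesis, stood first among the 23. Thrsp read 9.44, 9.26 and 9.97 in AAV-V and 0.73, 0.07 and -0.07 in AAV-GP73, at least 196-fold lower, and its log2 difference before scaling was -7.79. Its second probe fell from 74.4 to 81.7 down to 2.56 to 4.27 in processed signal before scaling. Fasn, the fatty acid synthase itself, read 6.47, 6.23 and 6.15 against 2.18, 2.21 and 1.25, at least 19.2-fold lower (chr11:120668460-120668519 of mm9). Fasn has 1 probe on the array, and before scaling it read 51.5, 41.3 and 45.3 in AAV-V and 7.01, 7.42 and 4.70 in AAV-GP73, a log2 difference of -2.87, which is smaller than the bound on the scaled values.

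Of 17 lipogenesis genes 10 were tested, of which 6 were called lower and 0 higher, with a median relative change of -1.58, and Thrsp and Fasn are 2 of the 6. Of the 5 measured, 4 were called lower, beside 45.7% of all measured genes. With normexp 3 of the 10 were called lower and the median was -0.21, and with no filter on dim genes the median turned to 0.40. Acly, which makes cytosolic acetyl-CoA from citrate, read 5.43, 4.16 and 5.58 against 3.70, 4.30 and 4.01, a relative change of -1.68 ± 0.40 (SE), and the groups overlapped. The other probe of Acly was above background on no AAV-GP73 array and read 50.6, 36.4 and 61.5 against 2.06, 1.84 and 1.56 before scaling. Acacb, the mitochondrial acetyl-CoA carboxylase whose product inhibits Cpt1a, was at -2.96 ± 0.34 (SE). The bright probe of Acacb read 869, 1050 and 1500 against 884, 483 and 601 before scaling, and a dimmer one 7.43, 19.0 and 14.1 against 3.42, 3.24 and 3.1. Scd1, the stearoyl-CoA desaturase, was called lower at -1.48 ± 0.32 (SE), but before scaling it read 38.3, 25.5 and 28.8 against 31.1, 48.3 and 75.8. Relative to the median of the measured genes, Acly, Scd1 and Slc25a1 were no longer called, and Acacb, Fasn and Thrsp were.

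Elovl6 and Elovl5, which lengthen fatty acids, and Mlxipl, which encodes ChREBP, were at -0.52 ± 0.40 (SE), 0.48 ± 0.35 (SE) and -0.33 ± 0.32 (SE) and were not called. In cholesterol synthesis 3 of 8 genes tested (of 24) were called lower and 0 higher, beside 26.5% and 14.1% of all genes. Fdps, the farnesyl diphosphate synthase, read 5.58, 4.22 and 5.13 against 2.89, 2.55 and 2.69, a relative change of -2.89 ± 0.36 (SE). Fdft1, the squalene synthase, was called lower by its brightest probe, with a relative change of -3.79 ± 0.42 (SE), at 9.63, 12.5 and 18.3 against 5.53, 5.23 and 2.54 before scaling, whereas its other probe read 1.57, 1.59 and 1.87 against 8.99, 12.6 and 10.4. Relative to the all-gene median that other probe of Fdft1 was at 0.50 ± 0.27 (SE) and was not called. Hmgcs1, at the head of the pathway, was at 0.59 ± 0.46 (SE).

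The next genes above background on no AAV-GP73 array were of other kinds. Upp2, a liver uridine phosphorylase, was at least 12.9-fold lower on the scaled values, and Rangap1, which activates the GTPase Ran, at least 12.2-fold. Gna15, a G protein subunit, was at least 7.75-fold lower, and Ggps1, the geranylgeranyl diphosphate synthase, at least 6.10-fold. These bounds hold for the scaling used: before it, the log2 differences were -3.25 for Upp2, -2.40 for Rangap1, -2.15 for Gna15 and -1.11 for Ggps1, all smaller than the bounds. None of these 4 kept its call with normexp, whose offset shrinks the differences of dim probes, whereas Thrsp and Fasn did. All 4 other probes of Upp2 and both other probes of Rangap1 were above background on no array of either group. Ggps1 had another probe that was above background on all 3 AAV-GP73 arrays and on no AAV-V array.

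The largest falls among measured genes were of mixed kinds. Idh1, the cytosolic isocitrate dehydrogenase, read 5.59, 6.45 and 7.18 in AAV-V and 3.21, 2.66 and 2.54 in AAV-GP73, a relative change of -4.23 ± 0.41 (SE). Pgf, a growth factor of blood vessels, was at -3.88 ± 0.30 (SE), Vsig10, an immunoglobulin domain protein, at -3.59 ± 0.29 (SE), and Cnga3, a channel of cone photoreceptors, at -3.47 ± 0.39 (SE). Ppox, an enzyme of heme synthesis, read 6.78, 6.95 and 6.94 against 4.08, 3.97 and 4.07, a relative change of -3.47 ± 0.25 (SE). Rgs20, B4galnt3, Xdh, Ccnf, Elfn2 and Zfp608 lay between -3.37 and -3.62. Zbtb4, at -3.40 ± 0.91 (SE), read 4.38, 4.24 and 8.44 against 3.1, 2.60 and 3.04, and without the high AAV-V replicate 3 it was at -1.94 and still called. With normexp, Idh1, Pgf, Zfp608, Vsig10, Cnga3 and Elfn2 kept their call and the other 6 of the 12 did not.

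In most of these genes the other probes gave no such signal. Of the 12, 11 had other probes, and in 9 of them no other probe was above background on any of the 6 arrays. The first 30 bases of the 60-base probes are shown for Vsig10 and Idh1, where the bright and the dim probes of 1 gene disagree, and for Thrsp, where both fell, in lower case, 5′ to 3′, with the mm9 position of the whole probe.
Idh1, analysed probe, chr1:65221829-65221888: gcaaggagacgaaatgacacgaatcatttg
Idh1, other probe, chr1:65206035-65206094: ttatggacaaacttggagaaaacttgaagg
Vsig10, analysed probe, chr5:117775002-117775061: cctccggctgctccccgtttctctctagag
Vsig10, other probe, chr5:117804886-117804945: ctgcaaagaaaaactgcagatgggtcaacg
Vsig10, other probe, chr5:117788895-117788954: ataagttggggtgctaaaatcatgaaagag
Thrsp, analysed probe, chr7:104565562-104565621: gacccggaaagcacaggaggtgacgcggaa
Thrsp, other probe, chr7:104561649-104561708: aaagcagggatgctgtatctacctcacacg
The analysed probe of Vsig10 read 161, 210 and 252 in AAV-V and 84.5, 68.4 and 74.2 in AAV-GP73 before scaling, and its 2 other probes read between 1.23 and 2.22 on all arrays. The analysed probe of Idh1 read 28.1, 47.9 and 93.0 against 14.4, 10.1 and 11.4, and the other probe read 1.50, 1.51 and 1.83 against 2.98, 3.17 and 6.31. The base composition of the analysed probes was 61.7% G and C for Vsig10, 36.7% for Idh1 and 56.7% for Thrsp. Ccnf, a cyclin, had another probe that rose, from 1.41 to 1.78 in AAV-V to 8.81 to 14.2 in AAV-GP73 before scaling.

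**Figure D5:**
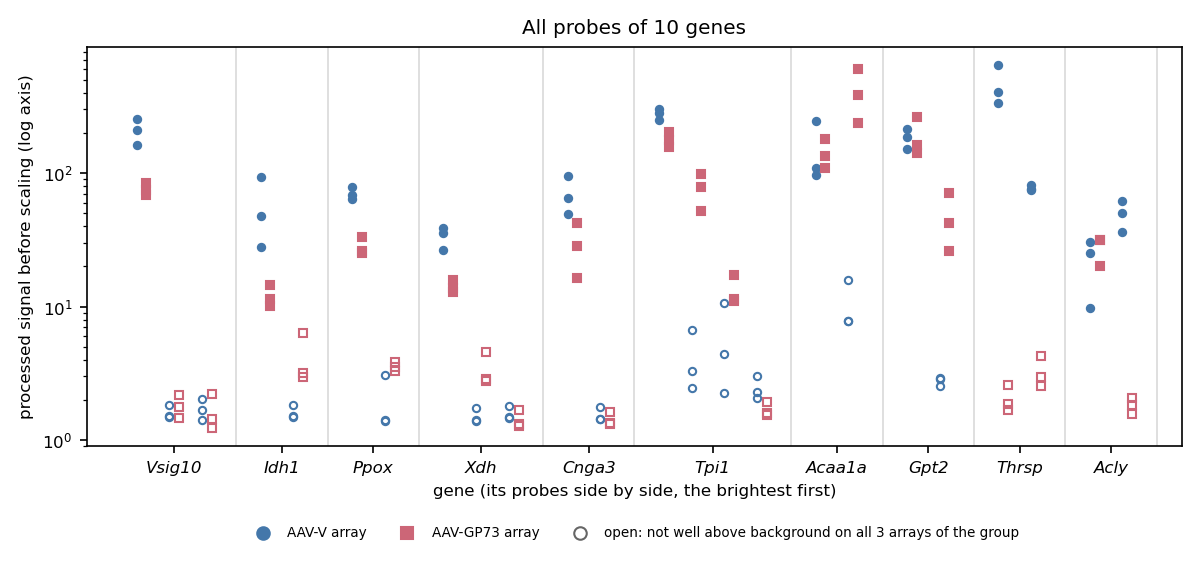
Processed signal before scaling on a log axis for every probe of 10 genes, 3 arrays per group, the probe with the highest mean first. In Vsig10, Idh1, Ppox, Xdh and Cnga3 only the first probe was above background, in Acaa1a, Gpt2 and Tpi1 another probe rose, and in Thrsp and Acly another probe fell.

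Of all 1135 measured genes called lower, 577 had other probes, and in 394 of these (68.3%) no other probe was above background on any array, beside 20 of 71 (28.2%) of the measured genes called higher and 211 of 522 (40.4%) of those not called. Before scaling the genes called lower hardly moved: in 992 of 1135 (87.4%) the mean log2 signals of the groups were within 2-fold of each other, the median difference was -0.01, and 61 were at least 2-fold lower in AAV-GP73. The genes called higher had a median difference of 3.65 before scaling and those not called 2.12. Most falls were thus signals that stayed level while that of the median gene was brighter. A RefSeq mRNA was named for 49.7% of the measured genes called lower, for 82.4% of those called higher and for 56.3% of those not called. Over the 2483 measured genes, the share of G and C in the probe correlated with the relative change at Spearman's rho = -0.28, a description over probes that share arrays.

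Where a second probe passed the same filter, it was set against the all-gene median in the same way. Of 138 second probes of genes called higher, 46 (33.3%) were called higher and 12 lower. Of 146 second probes of genes called lower, 32 (21.9%) were called lower and 27 higher. Of 491 second probes of genes not called, 387 (78.8%) were not called either. Among the members of the gene lists, 78 were called lower, 56 of these had other probes, and another probe was called lower in 3 (Acly, Rpsa and Thrsp) and higher in 5 (Acaa1a, Gpt2, Mrps33, Psmc4 and Tpi1). Tpi1, the triose phosphate isomerase of glycolysis, read 280, 250 and 304 against 156, 202 and 177 by its bright probe and 6.68, 3.32 and 2.45 against 51.7, 78.5 and 97.6 by another before scaling.

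Ribosomal protein genes stayed near the median. A 95% interval within 1 of the median on the log2 scale was found for 972 of the 5584 genes, of which 500 were measured. All 78 cytosolic ribosomal protein genes tested (of 79) were measured, their median relative change was 0.01, 0 were called higher and 4 lower, and 60 had such an interval. Rpl7 and Rpsa were among those called lower. Rpl7 was at -2.996 ± 0.33 (SE) by a bright probe of no RefSeq mRNA, while its 2 other probes were not called. Before scaling, the ribosomal protein genes were 2.16 higher on the log2 scale in AAV-GP73, as were all genes tested at 2.15, and the spike-in controls were 0.13 lower. Relative to the median of the measured genes, 18 of the 78 were called higher and 1 lower.

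Among the 10 brightest genes within these limits were ND4, a mitochondrially encoded subunit of complex I, with 13.21, 12.75 and 12.42 against 13.92, 13.45 and 13.05 (relative change 0.05 ± 0.33, SE), and the apolipoprotein genes Apoa2 and Apoc1, at -0.02 ± 0.32 (SE) and -0.23 ± 0.29 (SE). Mup3, a major urinary protein, was at 0.03 ± 0.36 (SE), Hhat, an acyltransferase, at 0.09 ± 0.33 (SE) and Pnisr at 0.16 ± 0.30 (SE). The others were the noncoding Rn4.5s, the transcripts EU234053 and AK161320 and 1 further mitochondrial transcript. Of 19 genes for apolipoproteins and VLDL assembly tested (of 25), 1 was called higher, 3 lower and 8 had an interval within these limits. For this and the next lists, the shares of all genes tested were 14.1% called higher and 26.5% lower. Apob, the core protein of VLDL, read 9.57, 9.37 and 9.48 against 9.16, 9.42 and 9.40, a relative change of -0.77 ± 0.26 (SE), and was not called. Before scaling this probe of Apob read 443, 364 and 455 against 887, 1100 and 1330. A dimmer probe of Apob, above background on no AAV-V array, differed more, at 3.04, 3.5 and 6.95 against 41.8, 34.6 and 59.2. Apoa5 was called higher at 1.35 ± 0.34 (SE) and Apoe lower at -1.42 ± 0.26 (SE). The call of Apoe was not kept relative to the median of the measured genes. Another probe of Apoe, above background on all 6 arrays, was at 0.19 ± 0.30 (SE) and was not called. Of 24 other secreted plasma proteins tested (of 25), 1 was called higher and 1, Serpina6, lower, 6 had such an interval, and albumin, encoded by Alb, was at -0.78 ± 0.27 (SE). Of 35 complement and coagulation genes tested (of 37), 4 were called higher and 0 lower, and 6 had such an interval. Relative to the median of the measured genes, 21 of the 35 were called higher.

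GP73 resides in the secretory pathway. Of 40 genes tested (of 61) for entry into the endoplasmic reticulum and transport to the Golgi apparatus, 4 were called higher (Sec24c, Srp14, Srp9 and Stx5a) and 8 lower, beside 14.1% and 26.5% of all genes, with a median of -0.06. All 4 called higher were above background on no AAV-V array. Sec61b, a subunit of the translocation channel, read 10.81, 10.94 and 11.17 against 9.98, 10.01 and 9.47, a relative change of -1.78 ± 0.28 (SE). Of 12 chaperone and unfolded protein response genes tested (of 29), 4 were called lower (Dnajc3, Hsp90b1, Sel1l and Pdia3) and 0 higher. Hspa5, the main chaperone of the endoplasmic reticulum, was at 0.30 ± 0.52 (SE), and Xbp1, a transcription factor of this response, at -0.52 ± 0.40 (SE). Of 20 Rab GTPases and TBC domain proteins tested (of 52), 9 were called higher, none of them measured, and 1, Tbc1d8, lower, as the single measured member. The 9 were among 17 above background on no AAV-V array, a class in which 569 of all 2061 genes were called higher. Of these lower calls, those of Sec61b, Hsp90b1, Sel1l and Pdia3 were not kept relative to the median of the measured genes.

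In the list for cytochrome P450 families 1 to 3, 28 genes were tested (of 42), 2 were called higher and 6 lower. These were no larger shares than the 14.1% and 26.5% of all genes. The list also holds Cyb5a, which is not a P450 and is 1 of the 2 called higher. Cyb5a, the cytochrome b5 electron donor, was at 1.79 ± 0.31 (SE) and Cyp2c29, a constitutive liver enzyme, at -1.96 ± 0.26 (SE), with 5.69, 6.08 and 5.96 against 4.67, 4.58 and 4.47. Of the major urinary protein genes 10 were tested, 0 were called higher and 1, Mup5, lower. These genes are near-identical, and their probes may share targets.

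Few genes of inflammation and of other cells were called relative to the all-gene median. Of 19 macrophage and inflammation genes tested (of 42), 0 were called higher and 1, Itgam, lower, beside 14.1% and 26.5% of all genes tested. Relative to the median of the measured genes, 8 of the 19 were called higher and 0 lower. With that reference, 43.1% and 17.1% of all genes tested were called higher and lower. Of the 19, 9 were above background on no AAV-V array, a class in which 569 of all 2061 genes were called higher. Of 12 macrophage markers, 2 were above background throughout the AAV-V group and 6 throughout the AAV-GP73 group, and Adgre1, C1qa, C1qb and Timd4 were above background on none. Of 9 collagen and matrix genes tested (of 32), 0 were called higher and 3 lower (Bgn, Des and Tagln), beside the same shares of 14.1% and 26.5%. Relative to the median of the measured genes, 4 of the 9 were called higher and 3 lower, beside 43.1% and 17.1% of all genes tested. No marker of adipocytes or cholangiocytes was tested, and Adipoq, Plin1, Krt19 and Epcam were above background on no array. Of the endothelial markers, Clec4g and Egfl7 were called higher and Stab1 and Lyve1 were above background on no array. The summed scaled signal of the T and NK cell markers was 1449 to 2963 in AAV-V and 308 to 675 in AAV-GP73, and it came from Cd4, whose 2 other probes, like Cd3e and Cd3d, were above background on no array.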

How the data were processed

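Liver RNA (6 samples) was measured on single-colour Agilent arrays with 60-base probes. Intensity values were deposited by the authors as the processed signal of Agilent's scanner software (version 12.0.3.1). Per the file headers it subtracts a spatial surface and a multiplicative trend within an array and applies no scaling between arrays. A table of log2 values, also deposited by the authors, served as an alternative, and how it was normalized is not given in the sources used here. Each array held 59305 non-control spots, and 98 to 151 spots per array of the whole series with outlier marks were left out. Probe positions and gene names are those of the files, on mm9.

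In R 4.3.3, log2 signals were scaled so that the 75th percentile over probes detected on every array was equal. A gene was represented by its brightest probe and tested if this was above background on all 3 arrays of a group. AAV-GP73 was compared with AAV-V in limma 3.58.1, the median of all coefficients was subtracted, and Benjamini-Hochberg adjustment covered all 5584 genes. Precision is limited by the number of arrays. The code was tested on simulated data. Lists were described by counts and medians; of 1259 list genes 1234 matched by name and 12 through a synonym.

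The members and lists were chosen with earlier results of these data known. Named genes were the 12 largest rises and falls among measured genes called under both references without overlap, the 8 largest least folds in each direction, the 10 brightest genes with an interval within 1 of the median, genes the study names, and the extreme, opposed and defining members of lists. Some genes are counted but not reported by name. Genes shown for their probes or promoters were chosen after their values were seen, as were the comparisons of probes and of signals before scaling. Equal replicate numbers had residual correlations of 0.05, 0.12 and -0.03 and were not treated as pairs. Alternatives covered the scaling, reference, background correction, filter, probe choice, test, variance model, replicate block and each array left out.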

Additional observations from a re-analysis of the deposited data

How the results depend on the processing

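Of 1192 values of 53 named genes under the alternatives, 1127 kept their call or stayed without one. Another 31 lost the call, 23 gained one and 11 reversed. A value counted as reversed changed sign and had a call in the main setting or in the alternative. Changes of sign without a call in either setting are counted among the 1127. The rises of Ephx2, Pck1, Acaa1b, Decr1, Ldha, Bhmt, Scp2, Hacl1, Plin2, Cpt2 and Etfdh and the falls of Thrsp and Fasn kept their call under every alternative in which they were tested. The median log2 change of all genes, 0.62, was 1.61 with the 75th percentile of all probes, 2.29 with spike-in scaling, 0.71 with quantile normalization, 0.0873 with cyclic loess, -0.57 with normexp, 0.72 in the authors' log2 table, -0.22 with the filter on all 6 arrays and -1.59 with no filter. Beside 789 genes called higher and 1481 lower, the reference of the measured genes gave 2404 and 955, no reference 1930 and 1051, normexp 406 and 83, no filter 5830 and 117, the filter on all 6 arrays 553 and 749, and the t-test of the study's legend 667 and 1399 unadjusted and 496 and 1268 after Benjamini-Hochberg adjustment. By shares of rises among calls, normexp gave 83.0% and no filter 98.0%. Choices made after seeing the data were the probe nearest the end of a RefSeq mRNA, with 391 and 651, and genes with 2 or more passing probes, with 126 and 127. Leaving out each array gave 537 to 840 higher, 1335 to 1530 lower and a median of 0.54 to 0.67. The replicate numbers share only a number; with them as a replicate block 862 were called higher and 1507 lower.

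The reversed values were 1.24 for ENSMUST00000190277 with cyclic loess, 1.46, 1.29, 1.20 and 1.46 for ENSMUST00000190277, AK161320, Apoc1 and Apoa2 with normexp, 2.11, 2.04, 1.99, 2.19 and 0.53 for the same genes and Acly with no filter, and 0.44 for Ccnf with the probe nearest the end. With no filter the median lies among genes without signal, and the filter on all 6 arrays leaves fewer genes. The cause of the other differences was not tested. With normexp the falls of Idh1, Pgf, Zfp608, Vsig10, Cnga3, Elfn2, Thrsp and Fasn kept their call and the 12 other largest falls did not. The low signal over background of the AAV-V arrays limits what can be measured there.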
